A study of Mus musculus with 12 samples.

Results

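The 10 genes followed here sit beside the Frizzled receptors in Wnt signalling, and were compared in the intestinal epithelium of Fzd5 knockout and control mice. They are the co-receptors Lrp5 and Lrp6, the R-spondin receptor Lgr4, the Dickkopf receptor Kremen1, the alternative Wnt receptors Ryk, Ror2 and Ptk7, and the planar polarity genes Celsr1, Vangl1 and Vangl2. They were taken by symbol from the deposited table, and all 10 were found among its 55421 genes. Epithelial cells of the mouse jejunum had been sequenced as bulk RNA in 12 libraries. The groups were Fzd5KO at day 1, Ctrl at day 1, Fzd5KO at day 3 and Ctrl at day 3, with 3 libraries in each. The labels give the genotype and the day and nothing on strain, age, the event that day 1 and day 3 count from, any Cre driver or the genotype of Ctrl beyond its name. Values are TPM, a level per transcript length scaled to a fixed total in each library, so the depth behind a value is unknown.

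In canonical Wnt signalling a Wnt protein bridges a Frizzled receptor to Lrp5 or Lrp6, whose phosphorylated tail draws Axin to the membrane and stabilises β-catenin. R-spondins bound by Lgr4 and its relative Lgr5 keep receptors at the surface by holding off the ubiquitin ligases Rnf43 and Znrf3. Noncanonical branches run through Ror2, Ryk and Ptk7 and through the planar polarity proteins, which orient cells within the plane of an epithelium. Wnt signalling maintains the stem cells at the base of the intestinal crypt.

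The targeted gene Fzd5 was at 70.2% of its Ctrl mean in Fzd5KO at day 1 and at 59.5% at day 3, and was lower in every knockout library than in every control library of the same day. The labels do not say which part of Fzd5 is deleted. The 6 epithelial markers, Epcam among them, were above 1 TPM in every library. Their summed level was 4590 to 4710 TPM in Fzd5KO and 4430 to 4550 TPM in Ctrl at day 1, and 6330 to 6480 TPM in Fzd5KO and 4480 to 4650 TPM in Ctrl at day 3. At day 1 only Krt8 and Krt19 had a higher mean in Fzd5KO. Epcam averaged 823 TPM in Fzd5KO and 838 TPM in Ctrl, Cdh1 229 and 247, Krt18 140 and 157, and Vil1 923 and 970. At day 3 Krt18 averaged 124 TPM in Fzd5KO and 171 TPM in Ctrl, and the other epithelial markers were higher in Fzd5KO. Markers of other cells moved with the groups. The 5 crypt-base stem cell markers, Olfm4, Axin2 and Lgr5 among them, summed to 84.1 to 88.6 TPM in Fzd5KO and 352 to 369 TPM in Ctrl at day 1. At day 3 they summed to 50.3 to 52.7 TPM in Fzd5KO and 532 to 566 TPM in Ctrl. Olfm4 had the highest mean of the 5 in every group. The summed level of the 5 enterocyte markers was higher, at 12700 to 13200 TPM in Fzd5KO and 10000 to 10500 TPM in Ctrl at day 1, and 20400 to 21000 TPM in Fzd5KO and 8310 to 8770 TPM in Ctrl at day 3. At day 1 the higher sum came from Apoa4, Fabp1 and Krt20, since Sis averaged 1550 TPM in Fzd5KO and 2090 TPM in Ctrl and Alpi 447 TPM in Fzd5KO and 459 TPM in Ctrl. The 4 goblet cell markers summed to 4330 to 4520 TPM in Fzd5KO and 7480 to 8110 TPM in Ctrl at day 1, and to 4510 to 4820 TPM in Fzd5KO and 7070 to 7480 TPM in Ctrl at day 3. The 4 proliferation markers summed to 203 to 208 TPM in Fzd5KO and 238 to 254 TPM in Ctrl at day 1, and to 167 to 174 TPM in Fzd5KO and 306 to 320 TPM in Ctrl at day 3. The 8 fibroblast and smooth muscle markers summed to 12.4 TPM or less in every library, and the 3 endothelial markers to 1.69 TPM or less. The 4 T cell markers summed to 75.0 to 88.9 TPM in Fzd5KO and 122 to 135 TPM in Ctrl at day 1, and to 109 to 120 TPM in Fzd5KO and 27.2 to 30.8 TPM in Ctrl at day 3. The 4 myeloid markers summed to 7.26 to 8.18 TPM in Fzd5KO and 7.9 to 8.38 TPM in Ctrl at day 1, and to 17.5 to 19.5 TPM in Fzd5KO and 8.35 to 10.7 TPM in Ctrl at day 3. None of these markers was at 0 in every library. The part of these cell types in the results below was not tested. In bulk samples, fewer cells of a type and less RNA per cell cannot be told apart.

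Promoter sequence was at hand for 5 of the 10 genes, as RefSeq windows of 300 bases on GRCm38.p6 that reach from 250 bases before RefSeq's gene start to 50 bases after it. Those of Ror2, Ptk7, Lgr4 and Vangl2 are shown because each of these genes passed its test of a lower level in the knockout on both days, or over both days together for Vangl2. Each is written 5′ to 3′ on the gene's own strand, with GC boxes (GGGCGG on either strand) in capitals. Ror2 lies at chr13:53286075-53286374 on the minus strand, Ptk7 at chr17:46629455-46629754 on the minus strand, Lgr4 at chr2:109917397-109917696 on the plus strand and Vangl2 at chr1:172027246-172027545 on the minus strand. The Vangl2 window lies inside the gene as GENCODE draws it, which places the start further upstream than RefSeq does.
Ror2: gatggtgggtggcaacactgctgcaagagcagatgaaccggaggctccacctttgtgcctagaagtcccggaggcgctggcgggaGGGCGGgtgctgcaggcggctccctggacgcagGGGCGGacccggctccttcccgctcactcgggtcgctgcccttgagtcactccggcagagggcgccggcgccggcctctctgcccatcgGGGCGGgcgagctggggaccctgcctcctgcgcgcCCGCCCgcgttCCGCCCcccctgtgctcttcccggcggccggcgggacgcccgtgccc
Ptk7: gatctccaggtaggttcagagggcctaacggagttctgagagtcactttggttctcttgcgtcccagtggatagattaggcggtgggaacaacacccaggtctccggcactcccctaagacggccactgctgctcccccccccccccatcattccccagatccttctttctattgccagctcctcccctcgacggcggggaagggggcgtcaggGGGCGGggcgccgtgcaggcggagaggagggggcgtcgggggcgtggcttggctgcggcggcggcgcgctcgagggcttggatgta
Lgr4: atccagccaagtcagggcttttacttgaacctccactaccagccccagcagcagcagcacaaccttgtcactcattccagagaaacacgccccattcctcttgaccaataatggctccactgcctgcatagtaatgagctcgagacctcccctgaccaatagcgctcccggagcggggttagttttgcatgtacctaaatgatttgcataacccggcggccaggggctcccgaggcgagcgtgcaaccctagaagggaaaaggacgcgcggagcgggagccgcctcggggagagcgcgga
Vangl2: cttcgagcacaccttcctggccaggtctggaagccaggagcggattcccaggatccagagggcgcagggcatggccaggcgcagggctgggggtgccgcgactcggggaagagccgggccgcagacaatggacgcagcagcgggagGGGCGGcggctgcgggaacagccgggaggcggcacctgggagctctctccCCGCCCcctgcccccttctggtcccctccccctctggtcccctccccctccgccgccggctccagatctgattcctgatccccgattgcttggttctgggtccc
GC boxes numbered 5 in the Ror2 window, 1 in that of Ptk7, 0 in that of Lgr4, 2 in that of Vangl2 and 3 in that of Ryk, where 35.7% of the 32841 mouse promoter windows of this length that were searched hold at least 1. The TATA box letters TATAAA were found on either strand in the Ryk window and in none of the other 4, against 13.6% of all windows. The TCF/LEF core CTTTGAT, which the transcription factors at the end of the canonical pathway bind, was found in none of the 5 windows on either strand, against 3.73% of all windows. The windows of the 5 genes were 58.3% (Lgr4) to 74.7% (Ror2) G and C, against a median of 52.7% over all windows. These are matches of letters within 300 bases and say nothing about other parts of the genes.

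Of the 10 genes, 9 reached 1 TPM in at least 3 of the 12 libraries and were tested together with all 14510 genes that did so. The test was limma on log2(TPM + 1), with Benjamini-Hochberg adjustment over all tested genes and an adjusted p under 0.05 as the threshold. Fold changes on this scale understate the change of low genes. The labels do not say whether the 3 libraries of a group are separate animals, and p-values rest on the spread among the libraries at hand, which may only be technical. At day 1, 5 of the 9 were lower in Fzd5KO, where 22.8% of all tested genes were, and 0 of 9 were higher, where 2.13% of all tested genes were. At day 3, 5 of the 9 were lower in Fzd5KO against 38.5% of all tested genes, and 1 was higher against 24.3%. Knockout libraries lay wholly below control libraries for 6 of the 9 at day 1, against 38.9% of all tested genes, and for 7 of the 9 at day 3, against 40.8%. The median log2 change of the 9 was −0.22 at day 1 and −0.41 at day 3, beside −0.14 on both days over all tested genes. Quantile normalization brings the median of all genes up by 0.14 on the log2 scale at day 1 and by 0.105 at day 3, and calls 3 of the 9 lower at day 1, where it calls 6.34% of all tested genes lower, and 4 at day 3, where it calls 30.3%.

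**Figure D1:**
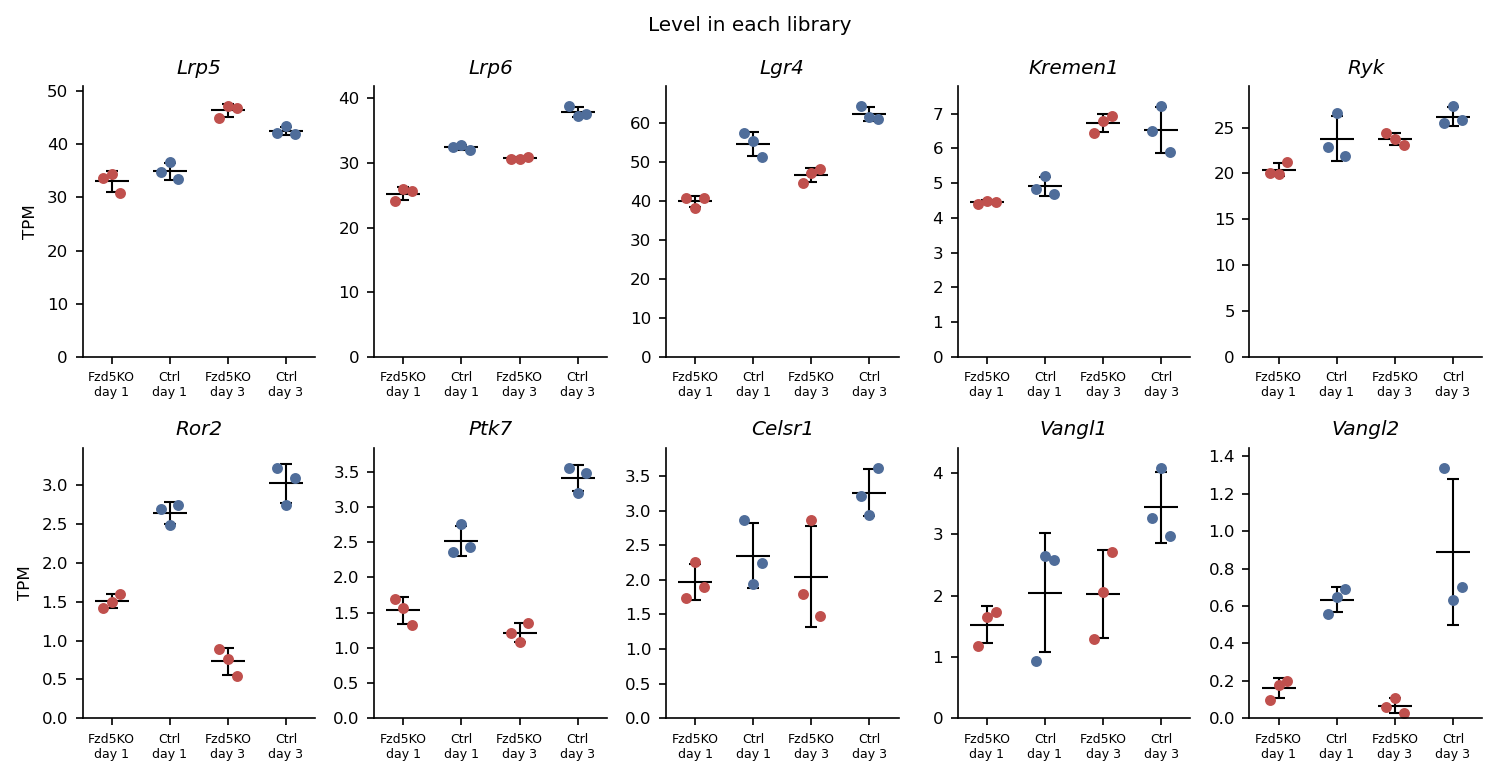
TPM of the 10 genes in each library (points, red for Fzd5KO and blue for Ctrl), with the mean and SD of the 3 libraries of a group as lines, and each vertical axis starting at 0. Lrp6, Lgr4, Ryk, Ror2, Ptk7 and Vangl2 are lower in every knockout library than in every control library of the same day, Ryk by a narrow margin. Lrp5 is close between genotypes.

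The canonical co-receptors Lrp5 and Lrp6 behaved differently. Lrp6 (chr6:134446476-134566965, minus strand), a co-receptor that the mouse embryo requires, had 24.1, 25.95 and 25.73 TPM in Fzd5KO and 32.45, 32.76 and 32.05 TPM in Ctrl at day 1. At day 3 it had 30.61, 30.55 and 30.98 TPM in Fzd5KO and 38.8, 37.29 and 37.53 TPM in Ctrl. Groups were tight and did not overlap on either day. Lrp6 fell to 77.9% of its Ctrl mean at day 1 and to 81.1% at day 3. The log2 change was −0.35 at day 1 (SE 0.0391, limma adjusted p = 0.000168) and −0.29 at day 3 (adjusted p = 5.1e-05), with the same call under all 23 alternative settings tried on each day. The size of the change did not differ detectably between days (interaction 0.06, SE 0.0553, limma adjusted p = 0.455), and the sign of that interaction turned under quantile normalization and under rescaling without abundant genes.

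Lrp5 (chr19:3584828-3686564, minus strand), the close relative of Lrp6, had 33.7, 34.45 and 30.82 TPM in Fzd5KO and 34.7, 36.65 and 33.41 TPM in Ctrl at day 1. These libraries overlapped, and the log2 change of −0.08 (SE 0.0498) did not pass (limma adjusted p = 0.256); its sign turned under all 3 other scalings. At day 3 it had 44.99, 47.18 and 46.89 TPM in Fzd5KO and 42.02, 43.34 and 41.97 TPM in Ctrl, every knockout library above every control. Lrp5 rose by 0.12 on the log2 scale at day 3 (SE 0.0498, limma adjusted p = 0.0475). This call was lost in 12 of 23 alternatives, with an adjusted p of 0.49 under quantile normalization, 0.536 when rescaled without abundant genes, 0.12 without Fzd5KO day 3 replicate 2, 0.113 without Fzd5KO day 3 replicate 3, 0.108 without Ctrl day 3 replicate 1, 0.0608 without Ctrl day 3 replicate 2 and 0.103 without Ctrl day 3 replicate 3. Leaving out Fzd5KO day 1 replicate 1 or Ctrl day 1 replicate 1 also ended it, at 0.0583 and 0.0598.

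The balance between the co-receptors can be read within a library, where scaling cancels. The ratio of Lrp6 to Lrp5 was 0.715, 0.753 and 0.835 in Fzd5KO and 0.935, 0.894 and 0.959 in Ctrl at day 1. The ratio at day 3 was 0.68, 0.648 and 0.661 in Fzd5KO and 0.923, 0.86 and 0.894 in Ctrl. All 6 knockout libraries lay below all 6 control libraries. The mean log2 ratio differed by −0.35, Fzd5KO minus Ctrl, over both days (two-sided exact permutation test within days, p = 0.005, the smallest that 400 arrangements can give, and 0.005 after adjustment over the 3 ratios tested). Lrp6 made up 43.4 ± 1.94% of the summed Lrp5 and Lrp6 level in Fzd5KO and 48.2 ± 0.893% in Ctrl at day 1, and 39.9 ± 0.597% in Fzd5KO and 47.2 ± 0.881% in Ctrl at day 3 (SD, n = 3 each). The sum itself averaged 58.2 ± 1.96 TPM in Fzd5KO and 67.3 ± 1.98 TPM in Ctrl at day 1, and 77.1 ± 1.27 TPM in Fzd5KO and 80.3 ± 0.714 TPM in Ctrl at day 3 (SD, n = 3 each).

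**Figure D2:**
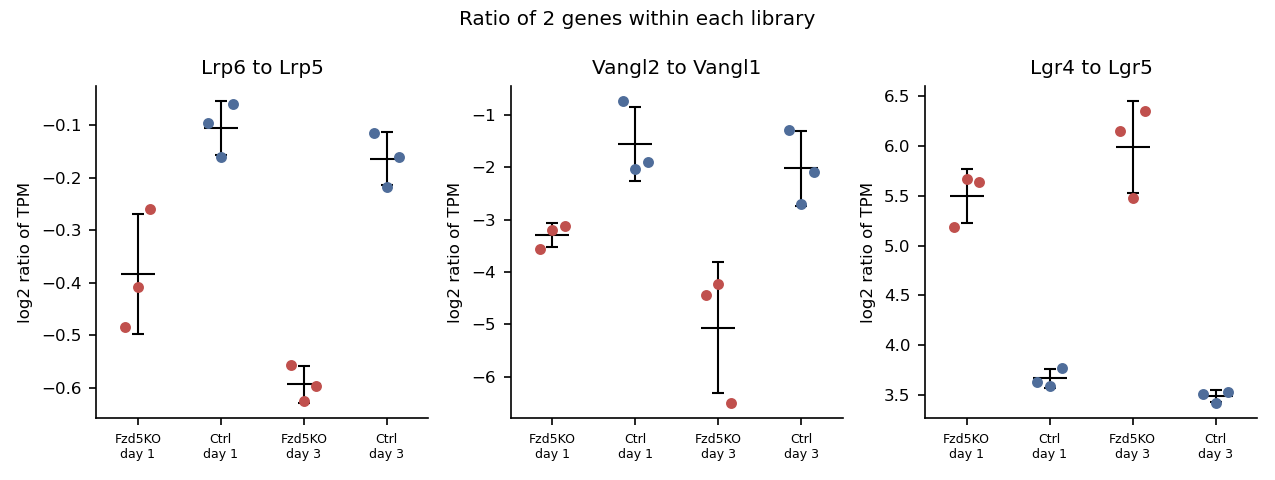
log2 ratio of TPM of 2 genes within each library (points, red for Fzd5KO and blue for Ctrl), with the mean and SD of 3 libraries as lines; the vertical axes are log2 scales and do not start at 0. Lrp6 to Lrp5 and Vangl2 to Vangl1 are lower in all 6 knockout libraries than in all 6 control libraries, and Lgr4 to Lgr5 is higher in all 6.

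Lgr4 (chr2:109917647-110014257, plus strand), the R-spondin receptor found along the whole crypt, had the highest mean of the 10 genes in every group, level with Lrp5 in Fzd5KO at day 3. At day 1 it had 40.67, 38.25 and 40.82 TPM in Fzd5KO and 57.33, 55.23 and 51.29 TPM in Ctrl. Its day 3 values were 44.7, 47.04 and 48.06 TPM in Fzd5KO and 64.32, 61.51 and 61.01 TPM in Ctrl. Knockout and control libraries were well apart on both days. Lgr4 fell to 73.1% of its Ctrl mean at day 1 and to 74.8% at day 3, log2 changes of −0.44 (SE 0.0493, limma adjusted p = 0.000159) and −0.41 (adjusted p = 2.19e-05) that passed under all 23 alternatives on each day. The interaction with day was 0.03 (SE 0.0697, limma adjusted p = 0.748) on TPM as deposited. Its sign turned to −0.21 under quantile normalization (adjusted p = 0.0175), to −0.16 when rescaled without abundant genes (adjusted p = 0.0382), and to −0.0041 without Ctrl day 1 replicate 1 (adjusted p = 0.97).

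Its relative Lgr5, confined in the healthy intestine to crypt-base stem cells, was much lower in level and fell further. Lgr5 averaged 0.897 ± 0.197 TPM in Fzd5KO and 4.31 ± 0.491 TPM in Ctrl at day 1, and 0.76 ± 0.261 TPM in Fzd5KO and 5.56 ± 0.253 TPM in Ctrl at day 3 (SD, n = 3 each). The Lgr4 to Lgr5 ratio was 36.3, 51.0 and 49.8 in Fzd5KO and 12.4, 12.1 and 13.7 in Ctrl at day 1. At day 3 it was 71.0, 44.4 and 81.5 in Fzd5KO and 11.4, 10.7 and 11.6 in Ctrl. Every knockout library was above every control library. The mean log2 ratio was 2.17 higher in Fzd5KO over both days (two-sided exact permutation test, p = 0.005, the smallest possible, and 0.005 adjusted over 3 ratios). It was 1.27 higher when 1 TPM was added to both genes first (exact permutation p = 0.005). Lgr5 was near the floor in Fzd5KO, at 0.59 to 1.12 TPM, and would not have passed the filter without control libraries, which limits this test.

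Kremen1 (chr11:5191552-5261558, minus strand), which with Dickkopf proteins removes Lrp6 from the membrane, was low and close between genotypes. It had 4.41, 4.5 and 4.47 TPM in Fzd5KO and 4.84, 5.22 and 4.69 TPM in Ctrl at day 1, and 6.43, 6.8 and 6.94 TPM in Fzd5KO and 6.5, 7.22 and 5.9 TPM in Ctrl at day 3. Knockout libraries were lower than all controls at day 1 and overlapped them at day 3. The log2 changes of −0.11 at day 1 (SE 0.0755, limma adjusted p = 0.283) and 0.04 at day 3 (adjusted p = 0.683) did not pass, and each changed sign under at least 1 other scaling. Under quantile normalization the day 3 change was 0.29 and passed (adjusted p = 0.00264), and without Ctrl day 3 replicate 3 it was −0.024 (adjusted p = 0.801).

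The receptor kinase Ror2 (chr13:53109312-53286124, minus strand), a receptor of Wnt5a in other tissues, had the largest log2 change of the 9 tested genes on both days with a pseudocount of 1. At day 1 the change of Lgr4 was larger with a pseudocount of 5 (−0.41 against −0.23), and that of Ptk7 without Fzd5KO day 1 replicate 1 (−0.521 against −0.516). At day 1 Ror2 had 1.42, 1.5 and 1.6 TPM in Fzd5KO and 2.7, 2.49 and 2.75 TPM in Ctrl. Ror2 then had 0.89, 0.76 and 0.55 TPM in Fzd5KO and 3.23, 2.75 and 3.1 TPM in Ctrl at day 3. The knockout libraries were far below the controls on both days and lower at day 3 than at day 1. Ror2 was at 56.9% of its Ctrl mean at day 1 and at 24.2% at day 3. Its log2 change was −0.54 at day 1 (SE 0.101, limma adjusted p = 0.00371) and −1.22 at day 3 (adjusted p = 1.07e-06), and the change was larger at day 3 (interaction −0.68, SE 0.143, adjusted p = 0.00253). Each of these calls held under every alternative that tested the gene, 22 for each day and 21 for the interaction. Ror2 was at 1 TPM or more in 9 libraries, all but the 3 of Fzd5KO at day 3.

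Ptk7 (chr17:46564471-46629504, minus strand), a catalytically inactive receptor kinase of the planar polarity pathway, also fell on both days. It had 1.7, 1.57 and 1.33 TPM in Fzd5KO and 2.36, 2.76 and 2.43 TPM in Ctrl at day 1, and 1.21, 1.09 and 1.35 TPM in Fzd5KO and 3.56, 3.2 and 3.48 TPM in Ctrl at day 3. No knockout library reached the lowest control of its day. Ptk7 was at 60.9% of its Ctrl mean at day 1 and at 35.7% at day 3. The log2 change was −0.47 at day 1 (SE 0.0965, limma adjusted p = 0.00558), −0.99 at day 3 (adjusted p = 3.89e-06), and larger at day 3 by −0.52 (SE 0.136, adjusted p = 0.00917). The day 1 call was lost under quantile normalization (log2 change −0.30, adjusted p = 0.0599), and the calls at day 3 and for the interaction held under all alternatives.

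Ryk (chr9:102834917-102908305, plus strand), the other catalytically inactive Wnt receptor, lay between Lrp6 and Kremen1 in level. It had 20.09, 19.97 and 21.21 TPM in Fzd5KO and 22.84, 26.58 and 21.92 TPM in Ctrl at day 1, and 24.4, 23.7 and 23.09 TPM in Fzd5KO and 25.47, 27.34 and 25.78 TPM in Ctrl at day 3. Knockout libraries were below all controls on both days by a narrow margin. The log2 change was −0.21 at day 1 (SE 0.0657, limma adjusted p = 0.0416) and −0.14 at day 3 (adjusted p = 0.0901). The day 1 call was lost in 16 of 23 alternatives, all 3 other scalings among them (adjusted p 0.267 to 0.556). Leaving out Ctrl day 1 replicate 2, the highest library of day 1, gave −0.13 at day 1 (adjusted p = 0.127) and a call at day 3 (adjusted p = 0.0259). The day 3 change also passed when rescaled without abundant genes (−0.23, adjusted p = 0.00477) and with array weights (adjusted p = 0.0496). Leaving out any of the 6 Fzd5KO libraries, Ctrl day 1 replicate 1, or replicates 1 or 3 of Ctrl day 3, put the day 1 adjusted p between 0.05 and 0.114.

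**Figure D3:**
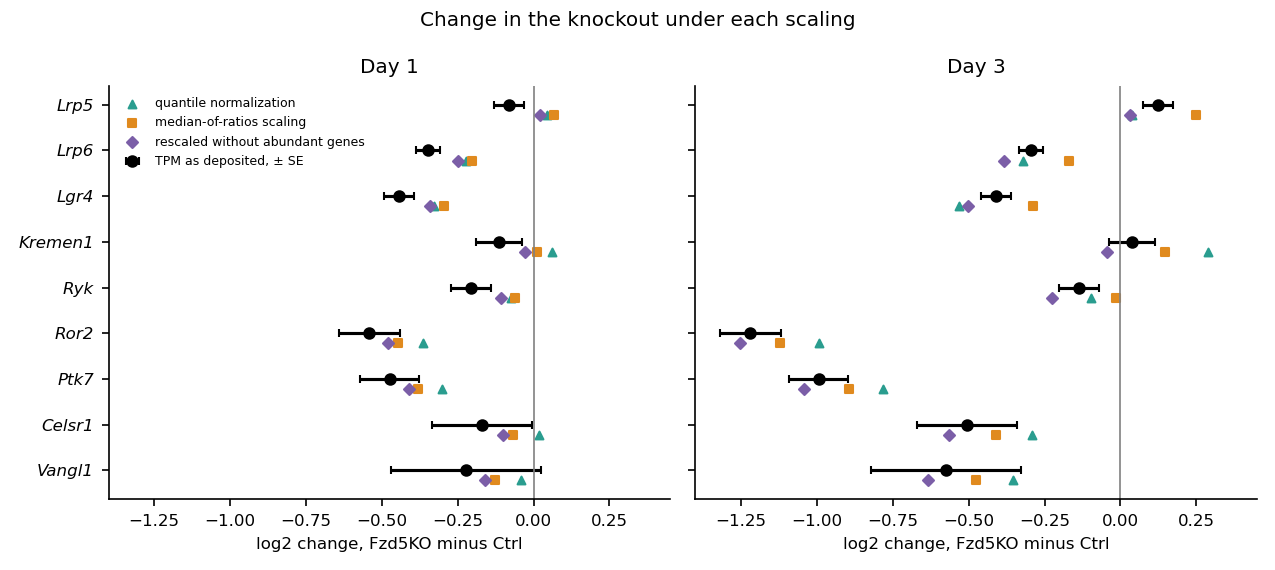
log2 change, Fzd5KO minus Ctrl, of the 9 tested genes at day 1 and day 3, on TPM as deposited (black, with SE) and under 3 other scalings (colours). Lrp6, Lgr4, Ror2, Ptk7, Ryk and Vangl1 lie left of 0 under every scaling on both days. Ror2 and Ptk7 lie further left at day 3, at −1.22 and −0.99.

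The planar polarity genes were low throughout. Celsr1 (chr15:85898929-86033777, minus strand), an atypical cadherin that links neighbouring cells, had 1.74, 2.25 and 1.9 TPM in Fzd5KO and 2.86, 1.94 and 2.24 TPM in Ctrl at day 1. At day 3 it had 1.8, 2.87 and 1.47 TPM in Fzd5KO and 3.21, 2.94 and 3.62 TPM in Ctrl. The libraries overlapped at day 1 and did not at day 3, where Fzd5KO replicate 2 came close to the lowest control. The log2 change of −0.17 at day 1 did not pass (SE 0.164, limma adjusted p = 0.472), and Celsr1 fell by 0.51 on the log2 scale at day 3 (adjusted p = 0.0188). That call was lost under quantile normalization (adjusted p = 0.174), under median-of-ratios scaling (0.0535), and without Fzd5KO day 3 replicate 1 (0.0596), Fzd5KO day 3 replicate 3 (0.0796) or Ctrl day 3 replicate 3 (0.0626). The difference between the days was −0.34 (SE 0.232, adjusted p = 0.271), and reached an adjusted p of 0.048 without Fzd5KO day 3 replicate 2.

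Vangl1 (chr3:102153583-102204693, minus strand), a membrane protein of the polarity complex, did not pass on either day. It had 1.18, 1.65 and 1.74 TPM in Fzd5KO and 0.93, 2.64 and 2.58 TPM in Ctrl at day 1, and 1.3, 2.06 and 2.72 TPM in Fzd5KO and 3.27, 4.09 and 2.97 TPM in Ctrl at day 3. Ctrl day 1 replicate 1 was the lowest of all 12 libraries, and at day 3 all controls were above all knockouts. The log2 change was −0.22 at day 1 (SE 0.247, limma adjusted p = 0.534) and −0.57 at day 3 (adjusted p = 0.0621). The day 3 change passed in 7 of 22 alternatives, with an adjusted p of 0.0152 without Ctrl day 1 replicate 1 and 0.0352 without Fzd5KO day 3 replicate 3. The day 1 change was −0.52 without Ctrl day 1 replicate 1.

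Vangl2 (chr1:172000960-172028444, minus strand), the Vangl gene whose loss disturbs neural tube closure in the mouse, was the lowest of the 10 genes and reached 1 TPM in 1 library only, so it was not among the tested genes. It had 0.1, 0.18 and 0.2 TPM in Fzd5KO and 0.56, 0.65 and 0.69 TPM in Ctrl at day 1, and 0.06, 0.11 and 0.03 TPM in Fzd5KO and 1.34, 0.63 and 0.7 TPM in Ctrl at day 3. All 6 knockout libraries were at or below 0.2 TPM and all 6 control libraries at or above 0.56 TPM. The difference over both days was −0.648 TPM (two-sided exact permutation test within days, p = 0.005, the smallest possible), and −0.536 TPM without the highest control, Ctrl day 3 replicate 1. In a limma fit without the filter on low values, over 31827 genes, the log2 change was −0.49 at day 1 (adjusted p = 0.031) and −0.81 at day 3 (adjusted p = 0.000409). The ratio of Vangl2 to Vangl1 was 0.0847, 0.109 and 0.115 in Fzd5KO and 0.602, 0.246 and 0.267 in Ctrl at day 1, and 0.0462, 0.0534 and 0.011 in Fzd5KO and 0.41, 0.154 and 0.236 in Ctrl at day 3. The log2 ratio differed by −2.39, Fzd5KO minus Ctrl, over both days (exact permutation p = 0.005, also after adjustment over the 3 ratios), but by −0.25 with an exact permutation p of 0.235 when 1 TPM was added to both genes first. The table gives TPM to 2 decimals, so the lowest of these values, 0.03 TPM, is known to 1 digit.

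The genes fell into the same tiers in every group. Lgr4, Lrp5, Lrp6 and Ryk were all between 19.97 and 64.32 TPM in every library, Kremen1 between 4.41 and 7.22 TPM, and the other 5 at 4.09 TPM or less. In the order of means within a group, Lgr4 was followed by Lrp5, Lrp6, Ryk and Kremen1, with no overlap between neighbours except Lgr4 and Lrp5 in Fzd5KO at day 3, at 46.6 ± 1.72 and 46.35 ± 1.19 TPM (SD, n = 3 each). In Ctrl, Ror2, Ptk7, Celsr1 and Vangl1 overlapped from neighbour to neighbour on both days. In Fzd5KO at day 1, Ptk7, Vangl1 and Ror2 overlapped, with means below that of Celsr1. The highest Vangl1 library met the lowest Celsr1 library there, at 1.74 TPM. In Fzd5KO at day 3, Celsr1, Vangl1 and Ptk7 overlapped from neighbour to neighbour, Ror2 stood below them at 0.7333 ± 0.172 TPM, and Vangl2 was lowest at 0.06667 ± 0.0404 TPM (SD, n = 3 each).

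Levels also differed between day 3 and day 1 within a genotype. In Fzd5KO, 5 of the 9 tested genes were higher at day 3 (34.4% of all tested genes were) and 1 was lower (10.5%). In Ctrl, 5 of the 9 were higher (25.0%) and 0 were lower (11.0%). The median change of the 9 was 0.22 in Fzd5KO and 0.28 in Ctrl, beside 0.11 in Fzd5KO and 0.12 in Ctrl over all tested genes. The calls that held under every alternative in both genotypes were those of Lrp5, which rose by 0.48 in Fzd5KO (limma adjusted p = 1.06e-05) and by 0.28 in Ctrl (adjusted p = 0.00151), and Kremen1, which rose by 0.50 in Fzd5KO (adjusted p = 0.000213) and by 0.35 in Ctrl (adjusted p = 0.00464). Lrp6 rose by 0.27 in Fzd5KO (limma adjusted p = 0.000143) and by 0.22 in Ctrl (adjusted p = 0.00144), and Lgr4 by 0.22 in Fzd5KO (adjusted p = 0.00357) and by 0.19 in Ctrl (adjusted p = 0.0126). Under median-of-ratios scaling, the calls of Lrp6 and Lgr4 in Ctrl and of Lgr4 in Fzd5KO were lost, and under quantile normalization and rescaling without abundant genes the Lgr4 change in Fzd5KO turned to −0.05 and −0.0062. The same 2 scalings put the Lrp6 change in Fzd5KO at 0.05 (adjusted p = 0.336 and 0.346).

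Ror2 was the exception among them. In Fzd5KO it fell by 0.54 at day 3 relative to day 1 (limma adjusted p = 0.0011), whereas its change in Ctrl was 0.14 (adjusted p = 0.299). Ptk7 rose by 0.33 in Ctrl (limma adjusted p = 0.0211), a call lost in 7 of 22 alternatives, and its change in Fzd5KO was −0.19 (adjusted p = 0.133), which passed under median-of-ratios scaling (−0.29, adjusted p = 0.0281) and when rescaled (−0.32, adjusted p = 0.013). Ryk rose by 0.21 in Fzd5KO (limma adjusted p = 0.0233), a change of 0.0087 under quantile normalization (adjusted p = 0.927), and its change in Ctrl was 0.14 (adjusted p = 0.123). The comparisons across days and across genotypes share libraries and are not independent of each other. In the test of the interaction, the effect of genotype was lower at day 3 than at day 1 for 2 of the 9 (19.1% of all tested genes), Ror2 and Ptk7, and higher for 1 (25.3%), Lrp5. The Lrp5 interaction was 0.20 (SE 0.0704, limma adjusted p = 0.0345), and became −0.0061 under quantile normalization (adjusted p = 0.949).

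Other genes of the pathway were counted from lists of receptors, inhibitors, kinases and polarity genes. Of 17 other Wnt surface receptors and ubiquitin ligases, 9 were tested, with Fzd6 on this list and on that of polarity genes. At day 1, 7 of the 9 fell and 0 rose, with a median log2 change of −0.39 beside −0.14 over all tested genes, of which 22.8% fell and 2.13% rose. At day 3, 8 fell and 0 rose, with a median of −0.70 beside −0.14 over all tested genes, of which 38.5% fell and 24.3% rose. Both counts include Fzd1, which reached 1 TPM in the 6 control libraries alone and so passed the filter through them. Both also include Lgr5, and that of day 3 includes Fzd9. In Fzd5KO, Lgr5 reached 1 TPM only in day 1 replicate 1 (1.12 TPM) and day 3 replicate 2 (1.06 TPM). Fzd9 did so only in day 1 replicate 3 (1.17 TPM). Neither would have passed the filter without control libraries, and the medians include all 3 genes. Of the 9 genes, 4 fell at day 1 and 7 at day 3 under quantile normalization, beside 6.34% and 30.3% of all tested genes. Under median-of-ratios scaling 5 fell at day 1 and 7 at day 3, beside 6.78% and 30.4%. When rescaled, 5 fell at day 1 and 9 at day 3, beside 10.7% and 49.5%. Lgr5 had log2 changes of −1.49 at day 1 and −1.91 at day 3, and was at 1 TPM or more in 8 libraries, the 6 of Ctrl among them. For that reason no limma test of it is given. Rnf43, one of the ligases that remove Frizzled from the surface, fell by 0.44 at day 1 (limma adjusted p = 0.000909) and fell by 0.66 at day 3 (adjusted p = 3.98e-06), and its relative Znrf3 fell by 0.83 at day 3 (adjusted p = 8.45e-06). Lrp4, a relative of Lrp5 and Lrp6, fell by 0.31 at day 1 (limma adjusted p = 0.000969) and fell by 0.68 at day 3 (adjusted p = 1.76e-07). The Wnt receptor Fzd7 fell by 0.52 at day 1 (limma adjusted p = 0.00218), had a change of −0.16 at day 3 that did not pass (adjusted p = 0.127), and differed between the days (interaction 0.35, adjusted p = 0.0374).

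All 12 genes listed around the Lrp5 and Lrp6 tail, the chaperone Mesd, the kinases and the Axin scaffolds, were tested. At day 1, 5 fell and 0 rose (median −0.20), beside 22.8% and 2.13% of all tested genes, but 1 fell under each of the 3 other scalings. Of all tested genes, 6.34% fell there under quantile normalization, 6.78% under median-of-ratios scaling and 10.7% when rescaled. At day 3, 3 fell and 5 rose (median 0.14), beside 38.5% lower and 24.3% higher among all tested genes. Under quantile normalization 2 fell and 4 rose (median −0.0062), beside 30.3% lower and 27.5% higher. Under median-of-ratios scaling 2 fell and 7 rose (median 0.26), beside 30.4% and 30.5%. When rescaled, 5 fell and 4 rose (median 0.0451), beside 49.5% and 24.7%. Axin2, both a scaffold of the destruction complex and a target gene of canonical signalling, fell by 0.80 at day 1 (limma adjusted p = 8.82e-05) and fell by 1.62 at day 3 (adjusted p = 1.75e-08). The casein kinase gene Csnk1e fell by 0.72 at day 3 (limma adjusted p = 0.000204). Gsk3a, which encodes a kinase that phosphorylates the Lrp6 tail and β-catenin, rose by 0.50 at day 3 (limma adjusted p = 2.4e-06), and had a change of −0.10 at day 1 (adjusted p = 0.121). Csnk1a1 fell by 0.18 at day 1 (limma adjusted p = 0.0143), a call lost under the 3 other scalings, and rose by 0.33 at day 3 (adjusted p = 7.48e-05).

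Of 33 other planar polarity genes and effectors, 23 were tested. At day 1, 5 fell and 1 rose (median −0.13), a share close to the 22.8% of all tested genes that fell. Under quantile normalization 2 fell and 1 rose (median 0.0088), beside 6.34% lower and 5.86% higher among all tested genes. Under median-of-ratios scaling 2 fell and 3 rose (median 0.0147), beside 6.78% and 8.03%. At day 3, 7 fell and 6 rose (median −0.06), beside 38.5% lower and 24.3% higher among all tested genes. Under median-of-ratios scaling 6 fell and 10 rose (median 0.06), beside 30.4% lower and 30.5% higher among all tested genes. When rescaled, 11 fell and 6 rose (median −0.15), beside 49.5% and 24.7%. The formin gene Daam1 fell by 0.31 at day 1 (limma adjusted p = 0.000997). Celsr2, a relative of Celsr1, reached 1 TPM in the 6 control libraries alone and so passed the filter through them. It is in the counts of genes that fell on both days, on TPM as deposited. It averaged 0.88 ± 0.0954 TPM in Fzd5KO and 1.747 ± 0.0987 TPM in Ctrl at day 1, and 0.603 ± 0.0924 TPM in Fzd5KO and 2.61 ± 0.658 TPM in Ctrl at day 3 (SD, n = 3 each). Daam1 was higher in the knockout at day 3, by 0.93 (limma adjusted p = 1.37e-08), and averaged 33.9 ± 0.389 TPM in Fzd5KO and 17.3 ± 1.06 TPM in Ctrl. The kinase gene Mapk8 rose by 0.84 at day 3 (limma adjusted p = 1.66e-07), the small GTPase gene Rac1 by 0.63 (adjusted p = 4.82e-07) and the glypican gene Gpc4 by 0.52 (adjusted p = 2.74e-06). Among those that fell at day 3 was Scrib, with a log2 change of −0.48 (limma adjusted p = 8.14e-06). Wdpcp, a ciliogenesis and polarity effector, averaged 6.8 ± 0.877 TPM in Fzd5KO and 6.59 ± 0.879 TPM in Ctrl at day 1 and 18.04 ± 0.573 TPM in Fzd5KO and 3.7 ± 1.72 TPM in Ctrl at day 3, an interaction of 2.04 (limma adjusted p = 0.000111).

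**Figure D4:**
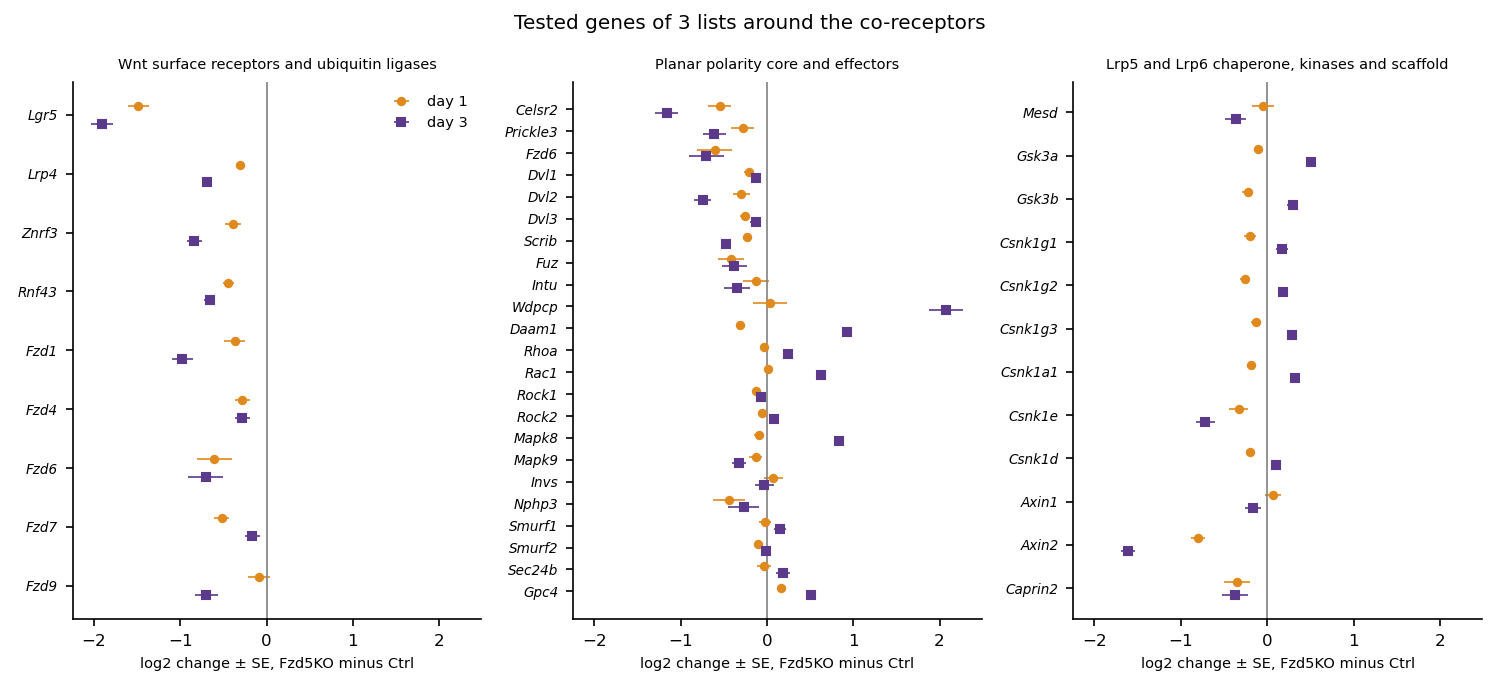
log2 change with SE, Fzd5KO minus Ctrl, of the tested genes of 3 lists at day 1 (orange circles) and day 3 (purple squares). On TPM as deposited, the surface receptors and ligases lie left of 0 on both days (Fzd9 at day 1 turns to 0.07 under quantile normalization). The polarity genes and effectors lie on both sides of 0 at day 3, with Daam1 at 0.93, Mapk8 at 0.84 and Scrib at −0.48.

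Ligands were scarce in these epithelial libraries. Of 7 listed Ror and Ryk ligands, 1 was tested, Wnt3, which Paneth cells make. It had a log2 change of −0.11 at day 1 (limma adjusted p = 0.364) and fell by 0.52 at day 3 (adjusted p = 0.00025). The 4 Paneth cell markers summed to 4280 to 4390 TPM in Fzd5KO and 4850 to 5270 TPM in Ctrl at day 1, and to 1870 to 2020 TPM in Fzd5KO and 4640 to 4820 TPM in Ctrl at day 3, and their part in the Wnt3 change was not tested. Wnt5a, Wnt5b and Wnt11, named here for their role after their values were seen, were at most 0.56, 0.5 and 0.28 TPM in any library. Of 17 secreted inhibitors and R-spondins, 1 was tested. It was Sfrp5, a secreted Wnt antagonist, which averaged 0.197 ± 0.0513 TPM in Fzd5KO and 2.09 ± 0.381 TPM in Ctrl at day 1, and 0.0167 ± 0.0289 TPM in Fzd5KO and 3.51 ± 0.303 TPM in Ctrl at day 3 (SD, n = 3 each). Sfrp5 passed the filter through its control libraries alone, so no test of it is given.

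The genes whose profile over the 12 libraries was nearest to that of each tested gene were sought among 8937 genes averaging at least 5 TPM. Likeness was the root mean square difference of log2 values centred on each gene's own mean. Nearest to Lrp6 was Slc38a2 (0.0351), and nearest to Lgr4 was Cd81 (0.0522). Dtl was nearest to Ror2 (0.0767) and Vars2 to Ptk7 (0.0726), with Ror2 and Ptk7 at 0.199 from each other. Gmds was nearest to Lrp5 (0.0414), Slc6a6 to Kremen1 (0.0423) and Tsta3 to Ryk (0.0373). For Celsr1 the nearest was Ublcp1 (0.1), and for Vangl1 it was Zfp142 (0.219), a poor match beside the spread of Vangl1 itself about its mean (0.409). Among pairs of the 9 tested genes, Lrp5 with Kremen1 (0.0683) and Lrp6 with Lgr4 (0.0774) were closest, whereas Lrp5 with Lrp6 stood at 0.195.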

How the data were processed

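Bulk RNA-seq libraries (TruSeq Stranded Total RNA, per the labels' protocols) of 4 groups of 3 were compared. The authors deposited 1 table of TPM values, 1 column for each of the 12 libraries and 0 columns of any other sample. RSEM, STAR 2.7.3a, bcl2fastq 2.18 and the mm10 build are listed, without roles, in the submitters' processing notes. Neither the annotation nor the strand setting of the counting is given there. Of 55421 gene identifiers, 55240 matched GENCODE M21 (GRCm38, the assembly of mm10), which gave coordinates counted from 1.

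Depth is unknown, so no counting interval is given. Genes that did not reach 1 TPM in 3 or more libraries were left out of the tests, which left 14510. log2(TPM + 1) was fitted with limma 3.58.1 in R 4.3.3 as 4 group means with an intensity trend (8 residual degrees of freedom), checked on simulated data. Ratios within a library, with no pseudocount, and Vangl2 were tested by exact permutation of genotype within days. Correlations across genes between libraries of a group were 0.976 or higher, lowest between replicates 1 and 3 of Ctrl day 1. Figures were drawn with matplotlib 3.10.9. Alternatives were other pseudocounts, filters and scalings, no trend, array weights, a replicate block, only the compared groups, and each library left out. The members and lists were chosen with earlier results of these data known. The genes named are the 10 members, Fzd5, the nearest profile to each tested member (least root mean square difference), and up to 4 called genes with the smallest p in each list and comparison.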

Additional observations from a re-analysis of the deposited data

Results flagged for a closer look

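The effect of genotype differed between day 3 and day 1 for 3 of the 9 tested genes, by the interaction term of the limma fit. The effect was lower at day 3 for 2, beside 19.1% of all tested genes, and higher for 1, beside 25.3%. For Ror2 the difference was −0.6782 on the log2 scale (limma adjusted p = 0.00253), with a change of −1.22 at day 3 and −0.54 at day 1. For Ptk7 it was −0.5201 (limma adjusted p = 0.00917), with −0.99 at day 3 and −0.47 at day 1. For Lrp5 it was 0.2044 (limma adjusted p = 0.0345), with 0.12 at day 3 and −0.08 at day 1, and this call was lost under quantile normalization (adjusted p = 0.949), when rescaled without abundant genes (adjusted p = 0.897) and in leaving out any of 7 libraries (adjusted p 0.055 to 0.0783). These were replicate 3 of Fzd5KO day 1, replicates 2 and 3 of Fzd5KO day 3, replicates 1 and 2 of Ctrl day 1 and replicates 1 and 3 of Ctrl day 3. The stem cell markers also differed more between genotypes at day 3, summing to 50.3 to 52.7 TPM in Fzd5KO and 532 to 566 TPM in Ctrl, than at day 1, with 84.1 to 88.6 TPM in Fzd5KO and 352 to 369 TPM in Ctrl. Olfm4 was the largest part of each sum, with Ctrl means of 446 TPM at day 3 and 284 TPM at day 1. Its log2 change was −4.13 at day 3 and −2.61 at day 1. Those of the other markers were −2.32 and −1.03 for Ascl2, −2.0 and −0.87 for Smoc2, −1.62 and −0.80 for Axin2, and −1.91 and −1.49 for Lgr5. The part of the stem cell markers in the differences of Ror2, Ptk7 and Lrp5 was not tested.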

How the results depend on the processing

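Depth is unknown, so the counting error of low genes such as Vangl2 cannot be given. Of the alternative values of the tested members, 901 kept direction and call, 62 lost the call, 16 gained one and 27 changed sign. The filter of at least 5 TPM, which leaves out Ror2, Ptk7, Vangl1 and Celsr1, called 3 members at day 1, 3 at day 3 and 1 in the interaction, against 5, 6 and 3. No member that it kept changed its call there. Of all genes it tested, 28.8% were lower and 2.9% higher at day 1. The shares were 40.7% and 29.4% at day 3, and 23.2% and 31.5% in the interaction. Quantile normalization called 3 at day 1 (6.34% lower and 5.86% higher of all tested genes), against 5. It called 3 between days in Fzd5KO (19.7% lower and 21% higher), against 6. Median-of-ratios scaling called 2 between days in Ctrl (17.7% lower and 12.1% higher), against 5. The cause of the changes under these scalings was not tested.

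All genes called at day 1 numbered 1771 under quantile normalization, 2149 under median-of-ratios scaling and 1943 when rescaled without abundant genes, against 3622 (2229 to 3674 with 1 library left out, lowest without Ctrl day 1 replicate 2). The share of called genes that were higher was 8.53% at day 1 (48.05% with quantile normalization, 54.2% with median-of-ratios scaling, 35.8% rescaled) and 38.7% at day 3 (50.1% under median-of-ratios scaling). For the interaction it was 56.96% (37.65% rescaled), for day 3 minus day 1 in Fzd5KO 76.57% (51.57%, 54.61% and 44.19%) and in Ctrl 69.39% (49.24% quantile, 40.6% median-of-ratios).

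Signs turned as follows. At day 1 quantile normalization gave 0.045 for Lrp5, 0.061 for Kremen1 and 0.017 for Celsr1, median-of-ratios scaling 0.068 for Lrp5 and 0.011 for Kremen1, and rescaling 0.022 for Lrp5. At day 3 rescaling gave −0.043 for Kremen1, whose values with 1 library left out ran from −0.024 to 0.10. For the interaction, quantile normalization gave −0.0061 for Lrp5, −0.10 for Lrp6, −0.21 for Lgr4 and −0.0205 for Ryk, and rescaling gave −0.14 for Lrp6, −0.16 for Lgr4, −0.12 for Ryk and −0.015 for Kremen1. With 1 library left out it ran from −0.0041 to 0.075 for Lgr4 and from −0.011 to 0.12 for Ryk. Between days in Fzd5KO, quantile normalization gave −0.054 for Lgr4 and −0.037 for Celsr1, median-of-ratios scaling −0.089 for Celsr1, rescaling −0.0062 for Lgr4, −0.013 for Ryk and −0.14 for Celsr1, and array weights −0.032 for Celsr1 (−0.17 to 0.16 with 1 library left out).

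Within 1 day the ratio tests cannot go below p = 0.1 in an exact permutation test. The log2 ratios of Lrp6 to Lrp5, Vangl2 to Vangl1 and Lgr4 to Lgr5 differed by −0.28, −1.74 and 1.83 at day 1 and by −0.43, −3.03 and 2.50 at day 3. With a pseudocount of 1 the Vangl2 to Vangl1 difference was −0.25 (exact permutation p = 0.235). That of Lgr4 to Lgr5 was then 1.27 and that of Lrp6 to Lrp5 −0.34 (exact permutation p = 0.005 for each). Same-numbered libraries did not deviate together (correlations of −0.0692 to 0.0926), which shows no pairing by replicate number but cannot exclude a weak one. A fit with the replicate block called 5 members at day 1 and 7 at day 3, and 3414 and 9029 of all genes, and the ratios kept an exact p of 0.0312. The pathway lists were also counted under the 3 other scalings, an alternative chosen after seeing the data.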
